A study of Mus musculus with 6 samples.

Results

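The genes described here move calcium out of the cytosol of the heart muscle cell, or set how fast that happens. They were chosen by name: the endoplasmic reticulum calcium pumps Atp2a1, Atp2a2 and Atp2a3, the plasma membrane calcium pumps Atp2b1, Atp2b2 and Atp2b4, the sodium-calcium exchanger Slc8a1, and the regulators Pln, Sln and Hrc. All 10 were found among the 46983 genes listed, and all 10 had enough counts to be tested. RNA was sequenced from whole hearts of mouse embryos at E13.5 on a C57BL/6 x DBA/2 background, 1 heart per library, with 3 hearts per group. The mutant hearts (replicates 1, 5 and 10) carried Tnnt2 Cre and floxed Wt1 alleles. The control hearts (replicates 2, 3 and 5) are labelled wild type, and the study's methods describe controls as Wt1 flox/flox embryos without Cre, so that on that reading the floxed alleles were common to both groups and Cre was the difference. The Cre transgene is driven by the Tnnt2 promoter in the cardiomyocyte lineage, and the methods also describe recombination in part of the proepicardium.

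After each beat, calcium released from the sarcoplasmic reticulum has to leave the cytosol before the muscle can relax. Most of it is pumped back into the reticulum by SERCA, the pump family encoded by the Atp2a genes, of which Atp2a2 is the cardiac member. Phospholamban (Pln) and sarcolipin (Sln) are very small membrane proteins that bind SERCA and slow it, and phosphorylation of phospholamban lifts that brake. The rest of the calcium leaves the cell through the sodium-calcium exchanger NCX1 (Slc8a1) and, to a smaller extent, through the plasma membrane pumps, PMCA (Atp2b genes), while Hrc is a histidine-rich calcium-binding protein inside the reticulum.

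The inhibitors are shown by their open reading frames because Pln is the gene of the 10 whose groups did not overlap and Sln the one farthest from its mean in the control heart that stands apart, and both are small enough to be read whole. The frames were read 5′ to 3′ from the GENCODE M21 transcripts (GRCm38). In the frame of Pln, the capitals mark codons 16 and 17, which encode the serine and the threonine that are phosphorylated. The third frame belongs to 1810037I17Rik, which encodes another-regulin, a further SERCA-binding protein of the same kind, and it is shown because it had the highest level of the small SERCA-binding proteins listed beside Pln and Sln.
Pln: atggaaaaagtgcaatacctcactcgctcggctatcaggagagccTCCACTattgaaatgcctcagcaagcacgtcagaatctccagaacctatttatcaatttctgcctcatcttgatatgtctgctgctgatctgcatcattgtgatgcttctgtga
Sln: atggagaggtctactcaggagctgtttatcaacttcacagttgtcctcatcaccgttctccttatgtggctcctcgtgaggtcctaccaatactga
1810037I17Rik: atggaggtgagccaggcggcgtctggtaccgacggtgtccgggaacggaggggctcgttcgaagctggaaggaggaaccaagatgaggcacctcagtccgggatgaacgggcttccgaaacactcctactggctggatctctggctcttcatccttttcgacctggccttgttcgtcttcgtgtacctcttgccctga
The Pln frame has 52 codons before the stop, the Sln frame 31 and the frame of 1810037I17Rik 65. In the Pln transcript the frame takes up 159 of 2334 bases.

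The 6 libraries held between 44244665 and 56373393 counted reads. Wt1, the targeted gene, did not separate the groups, with 19.97 to 39.97 CPM (counts scaled to the size of the library) in the wild type hearts and 17.7 to 35.7 in the mutants (edgeR quasi-likelihood test, adjusted p = 0.990), and its whole-gene count is not a measure of the floxed exon. All 12 cardiomyocyte markers were counted in the hearts, with summed levels of 23435 to 28120 CPM in wild type and 26852 to 30239 CPM in mutant hearts, which overlap. Wild type 5 stood apart: across 11795 genes, Spearman's rho between a gene's length and its deviation in that heart was −0.56, against −0.06 to 0.46 in the other hearts, so that long genes were low there. Wild type 3 held the highest counts of 10 of the 12 skeletal muscle markers that were counted at all. The fold changes of the 10 genes are given with and without wild type 5, and that of Atp2a1 also without wild type 3.

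The levels of the 10 genes spanned more than 3 orders of magnitude on the FPKM scale, which divides counts by gene length and depth and so allows genes to be compared. Atp2a2 was the highest, with a mean over the 6 hearts of 491 FPKM, and Pln followed with 404 FPKM. Atp2a2 was above Pln in 5 of 6 hearts, the exception being wild type 5, so these neighbours do not separate beyond their spread. Slc8a1 had 138 FPKM, below Pln and above Hrc in all 6 hearts. Hrc (52.0 FPKM) and Sln (47.0 FPKM) overlapped, Hrc being the higher in 4 of 6 hearts, and Sln was above Atp2b4 (27.2 FPKM) in 5 of 6. Atp2b1 had 15.1 FPKM, Atp2a3 2.33, Atp2a1 0.870 and Atp2b2 0.135. The order among the upper genes depends on which length stands behind it. The length used for Slc8a1 in the deposited values was 2901 bases, while the exons of all its transcripts cover 18807, and when counts were divided by all exon bases Pln (354) came before Atp2a2 (250) and Hrc (49.2) before Slc8a1 (21.3).

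**Figure D1:**
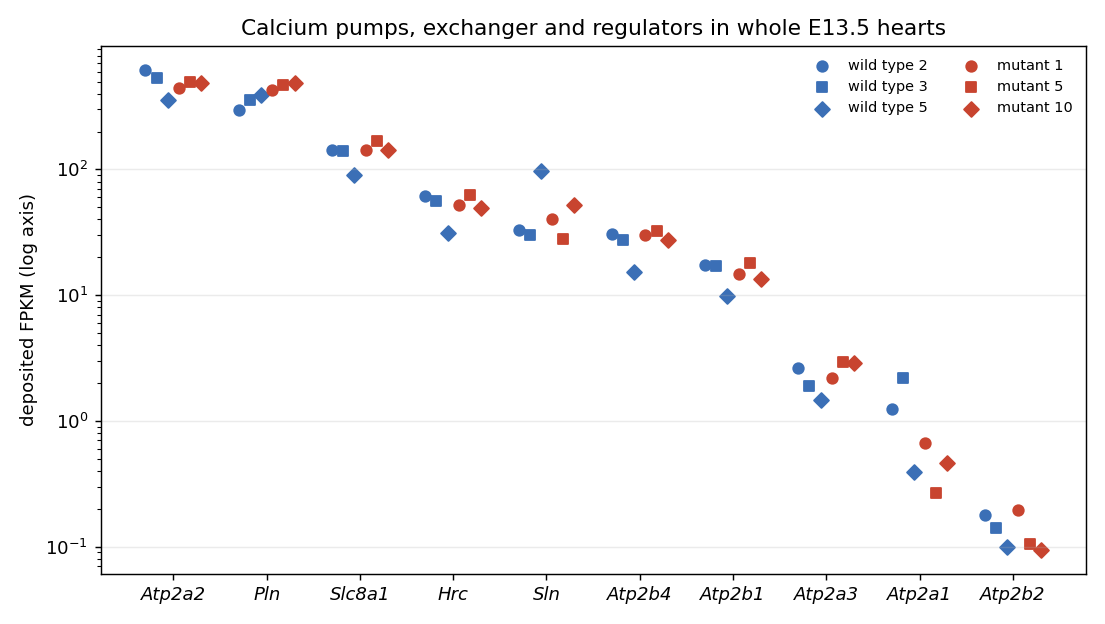
Deposited FPKM (log axis) of the 10 genes, ordered by mean, with 1 point per heart, wild type hearts in blue and mutant hearts in red. Atp2a2 and Pln lie at the top with means of 491 and 404 FPKM, and Sln in wild type 5 (98.0 FPKM) and Atp2a1 in wild type 3 (2.19 FPKM) lie well above the other hearts for those genes.

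The design asks which genes differ between hearts with and without Wt1 in the Tnnt2 lineage. None of the 10 genes passed the test (0 of 10 at an adjusted p under 0.05, edgeR quasi-likelihood test, with 0% of the 17473 genes tested passing). Adjusted p-values ran from 0.765 for Pln to 0.995 for Atp2b2, and DESeq2 and limma-voom called 0 of the 10 as well. At an unadjusted p under 0.05, 2 of the 10 were found, Pln on the higher side and Atp2a1 on the lower, where the background is 5.73% of all genes tested, 3.14% on the higher side and 2.59% on the lower. The groups did not overlap in 1 of the 10, Pln, whose mutant hearts were higher, where 11.2% of all genes did not overlap, 6.61% with the mutants higher and 4.59% with the mutants lower. The log2 fold change, mutant over wild type, was above 0 for 6 genes and below 0 for 4, with a median of 0.13 beside −0.0010 over all genes tested. Because whole hearts were sequenced, a change in the number of cells of a type and a change in RNA per cell cannot be told apart in any of these values.

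**Figure D2:**
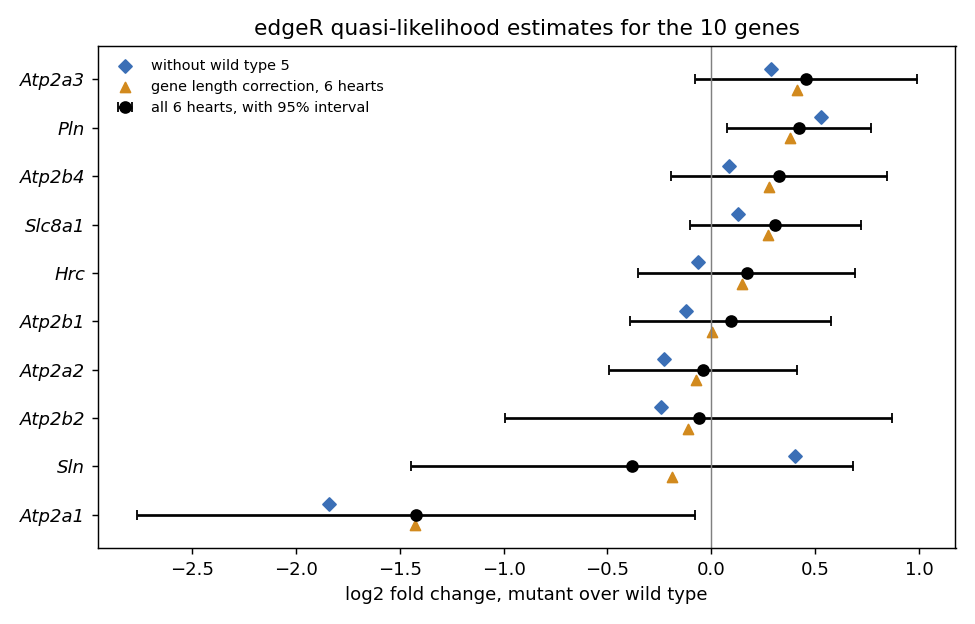
Log2 fold change, mutant over wild type, of the 10 genes in the edgeR quasi-likelihood fit, with 95% intervals for all 6 hearts (black), and the estimates without wild type 5 (blue) and after a gene length correction (orange). The intervals of Pln and Atp2a1 lie clear of 0, while Sln, Hrc and Atp2b1 change sign when wild type 5 is left out.

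Atp2a2 encodes SERCA2, and here stands for all its isoforms, since the counts are per gene (ENSMUSG00000029467, GRCm38 chr5:122453513-122502225, minus strand). It was counted at 1885, 1623 and 1112 CPM in wild type hearts 2, 3 and 5, and at 1355, 1539 and 1596 CPM in mutant hearts 1, 5 and 10. All 3 mutant hearts lay inside the range of the wild type hearts, whose highest and lowest values were the highest and lowest of all 6. The log2 fold change was −0.04 (SE 0.20, 95% interval −0.49 to 0.41), and without wild type 5 it was −0.23 (SE 0.11, adjusted p = 0.455). The interval of all hearts spans mutant to wild type ratios from 0.710 to 1.33, so equality was not shown.

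Pln, the phospholamban gene (ENSMUSG00000038583, chr10:53337667-53345987, plus strand), was counted at 708, 850 and 956 CPM in the wild type hearts and at 1009, 1123 and 1236 CPM in the mutants. Every mutant heart was above every wild type heart, although wild type 5 and mutant 1 lay close to each other. The means were 838 ± 124 and 1123 ± 114 CPM (SD, n = 3 each), a log2 fold change of 0.42 (SE 0.15, 95% interval 0.08 to 0.77) with an unadjusted p of 0.0223 and an adjusted p of 0.765 in the edgeR fit. The estimate stayed between 0.32 and 0.54 over the 19 alternatives run, with an adjusted p under 0.05 in none of them. Wild type 5, low for most of the other genes, was the highest wild type heart for Pln, and without it the log2 fold change was 0.53 (SE 0.12, adjusted p = 0.157). Without wild type 2, wild type 3, mutant 5 or mutant 10, the unadjusted p in the edgeR fit was 0.0752, 0.0571, 0.0569 and 0.0730, in that order.

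The ventricular marker list was also higher in the mutant hearts. Its summed level over 6 genes was 4546 to 5298 CPM in wild type and 5406 to 5996 CPM in mutant hearts, with no overlap, and most of it was Myl2, the ventricular myosin light chain, which by itself overlapped (3388 to 4123 CPM and 4052 to 4429 CPM). All 6 were above 0 in log2 fold change, 2 of them at an unadjusted p under 0.05 and none at an adjusted p under 0.05. The list was not alone in this, since the summed fibroblast and valve markers (1790 to 2485 CPM in wild type and 2495 to 3348 CPM in mutant hearts), the platelet markers and the macrophage markers did not overlap either. Among the fibroblast and valve genes only Col1a1 separated the groups by itself, and Pdgfra and Lum were below 0 in log2 fold change. Pln divided by the ventricular sum was 0.156, 0.182 and 0.180 in the wild type hearts and 0.187, 0.207 and 0.206 in the mutants, a log2 difference of 0.21 (exact permutation p = 0.1, the smallest that 3 against 3 hearts allow), a comparison chosen after the values were seen. Divided by the summed cardiomyocyte markers, Pln overlapped between the groups (log2 difference 0.32, exact permutation p = 0.3). The part of the ventricular markers in the result was not tested further. On the other strand, Cep85l shares 5.11% of the exon bases of Pln and had 113 to 262 reads per heart beside 39897 to 62200 for Pln. A larger overlap on that strand is with Gm47644, which shares 59.6% of the exon bases of Pln. The deposited counts have no entry for Gm47644, so its reads per heart are unknown. The strand setting of the counting is not given in the sources used here, and no effect of either overlap was measured.

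Sln, the sarcolipin gene (ENSMUSG00000042045, chr9:53850164-53854560, plus strand), is typical of atrial muscle in the heart. It was counted at 16.7, 15.2 and 50.8 CPM in the wild type hearts and at 20.3, 14.4 and 28.6 CPM in the mutants. Wild type 5 was far above all others and the remaining wild type hearts lay within the range of the mutants. This gave a log2 fold change of −0.38 (SE 0.46, 95% interval −1.45 to 0.68, adjusted p = 0.985), and it turned to 0.40 (SE 0.24, adjusted p = 0.540) without wild type 5. With all 6 hearts, a correction for gene length made the log2 fold change −0.19 (SE 0.33). That correction used the length behind the FPKM of Sln, 515 bases, the shortest of the 10 genes, while its exons cover 1318. The part of length in its values was not tested. The summed level of the 8 atrial markers was also highest in wild type 5 (5646 CPM) and overlapped between groups, with 4291 to 5646 CPM in wild type and 3985 to 5160 CPM in mutant hearts. By themselves only Myl7 (1742 CPM) and Stard10 (102 CPM) were highest in wild type 5. Nppa, Dkk3, Nr2f1 and Nr2f2 were highest in wild type 2, and Myl4 in mutant 10. Bmp10 was highest in mutant 5 and lowest in wild type 5 (124 CPM). Of those 8 markers 6 were below 0 in log2 fold change, and 5 had an unadjusted p under 0.05, with Nr2f1 and Nr2f2 lower and Bmp10 higher in every mutant heart and none at an adjusted p under 0.05. Most of the sum was Myl4, an atrial myosin light chain with a log2 fold change of 0.02. Relative to the sum, Sln differed by −0.09 on the log2 scale (exact permutation p = 1).

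Hrc (ENSMUSG00000038239, chr7:45335290-45338974, plus strand) was counted at 147, 132 and 76.4 CPM in the wild type hearts and at 124, 151 and 126 CPM in the mutants. Apart from the low value in wild type 5, the hearts of both groups were spread over the same range. The log2 fold change of 0.17 (SE 0.23, adjusted p = 0.985) became −0.07 without wild type 5.

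Atp2a1 encodes SERCA1, the pump of fast skeletal muscle (ENSMUSG00000030730, chr7:126445858-126463108, minus strand), and it made up only 0.0531% to 0.406% of the summed SERCA FPKM. It was counted with 143, 257 and 36 reads in the wild type hearts and 71, 29 and 51 reads in the mutants, or 2.54, 4.47 and 0.818 CPM against 1.37, 0.553 and 1.01 CPM. Wild type 3 and wild type 2 were the highest, and wild type 5 lay within the range of the mutants. On the log2 scale the fold change was −1.42 (SE 0.58, 95% interval −2.76 to −0.08), with an unadjusted p of 0.0406 and an adjusted p of 0.847, and without wild type 3 it was −0.79 (SE 0.55, adjusted p = 0.964) and without wild type 5 −1.84 (SE 0.40, adjusted p = 0.128).

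Markers of skeletal muscle are set beside Atp2a1 because of its known place in that tissue. Their summed level was 96.7, 156 and 60.4 CPM in the wild type hearts and 80.5, 43.4 and 80.2 CPM in the mutants, which overlap, and all 10 of the 13 listed that could be tested were below 0 in log2 fold change, 4 of them at an unadjusted p under 0.05. The single markers, named after their values were seen, did not all follow Atp2a1. The muscle determination factor Myod1 had 5.65 CPM in wild type 3 and 0.0962 to 0.550 CPM elsewhere, and embryonic myosin Myh3 had 27.4 CPM in wild type 3 and 1.26 to 2.73 CPM elsewhere, with its lowest value in wild type 2, the heart with the second highest Atp2a1. The fast troponin genes Tnni2 and Tnnt3 were instead highest in wild type 2, at 60.3 CPM and 13.1 CPM, and Tnni2 was the largest part of the sum in that heart. Tnnc2, the fast troponin C gene, was at 0 in every heart. Relative to the summed skeletal markers, Atp2a1 differed by −0.63 on the log2 scale (exact permutation p = 0.2, chosen after the values were seen), and the part of skeletal muscle in the result was not tested further. In addition, 21.9% of the exon bases of Atp2a1 are shared with Rabep2 on the other strand, which had 1036 to 1182 reads per heart.

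Atp2a3 encodes SERCA3, found in endothelial and blood cells rather than in cardiomyocytes (ENSMUSG00000020788, chr11:72961169-72993044, plus strand). It was counted at 8.83, 6.31 and 5.07 CPM in the wild type hearts and at 7.33, 10.1 and 10.3 CPM in the mutants, with mutant 1 below wild type 2. Its log2 fold change was 0.45 (SE 0.23, 95% interval −0.08 to 0.99, adjusted p = 0.928), and 0.29 without wild type 5. The summed megakaryocyte and platelet markers were higher in all mutant hearts (23.4 to 34.2 CPM summed in wild type, 38.8 to 55.1 CPM in mutants, 8 of 8 above 0), as were the summed macrophage markers (90.7 to 111 CPM and 144 to 158 CPM, 7 of 8 above 0). Of the platelet genes, Gp9, Gp1ba and Gp1bb overlapped by themselves. Erythroid markers overlapped, at 285 to 335 CPM in wild type and 161 to 520 CPM in mutant hearts, with 6 of 7 below 0. Endothelial markers overlapped between groups at 812 to 1206 CPM and 1069 to 1344 CPM, with 7 of 7 above 0, and the part of these cells in the Atp2a3 values was not tested.

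**Figure D3:**
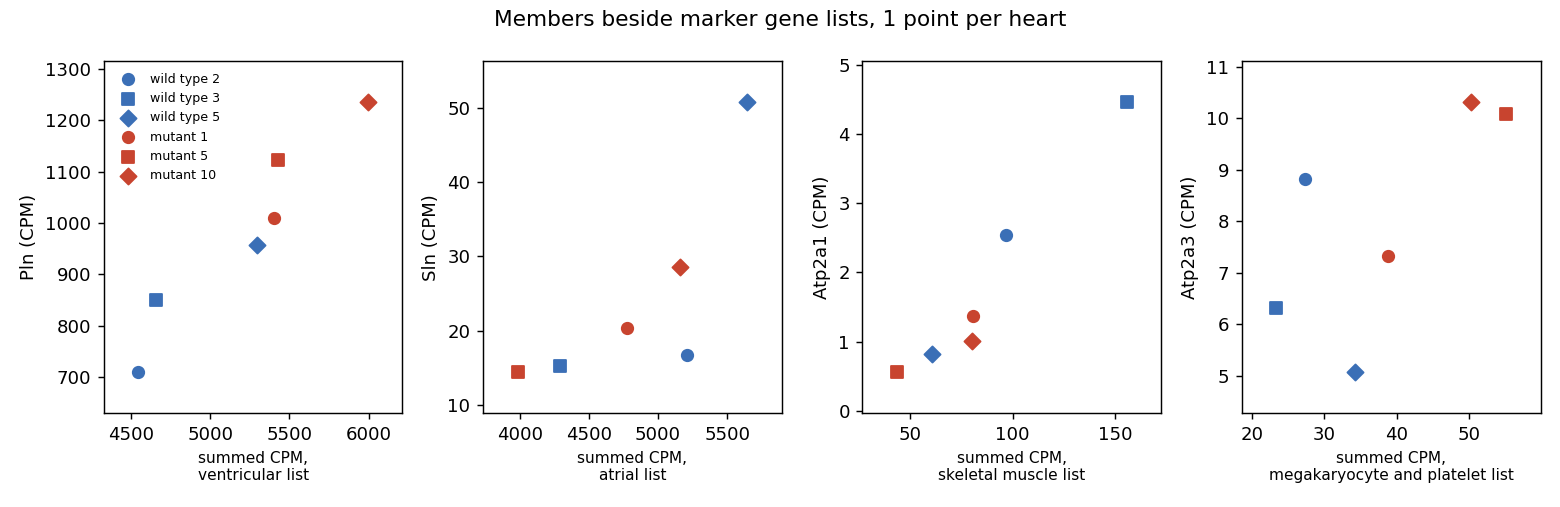
CPM of Pln, Sln, Atp2a1 and Atp2a3 (vertical axes) against the summed CPM of the ventricular, atrial, skeletal muscle, and megakaryocyte and platelet marker lists (horizontal axes), with 1 point per heart, wild type in blue and mutant in red. Wild type 3 is the highest for both Atp2a1 (4.47 CPM) and the skeletal muscle list (156 CPM), and wild type 5 the highest for both Sln (50.8 CPM) and the atrial list (5646 CPM). Only Myl7 and Stard10 of the atrial list were highest in wild type 5 by themselves.

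Of the plasma membrane pumps, Atp2b4 and Atp2b1 together made up nearly all of the PMCA signal. Atp2b4 (PMCA4, ENSMUSG00000026463, chr1:133699457-133801041, minus strand) was counted at 141, 125 and 71.1 CPM in the wild type hearts and at 138, 150 and 135 CPM in the mutants, a log2 fold change of 0.33 (SE 0.23, 95% interval −0.19 to 0.85, adjusted p = 0.976). Atp2b1 (PMCA1, the form found in most cell types, ENSMUSG00000019943, chr10:98914406-99026143, plus strand) was counted at 122, 119 and 70.7 CPM and at 103, 129 and 101 CPM, a log2 fold change of 0.09 (SE 0.21, adjusted p = 0.990). For both genes wild type 5 was the lowest heart and the groups overlapped. Without it the log2 fold changes were 0.08 (SE 0.09) for Atp2b4 and −0.12 (SE 0.11) for Atp2b1. Atp2b2 (PMCA2, known from neurons and hair cells, ENSMUSG00000030302, chr6:113743831-114042613, minus strand) had 47, 38 and 21 reads in the wild type hearts and 48, 26 and 24 in the mutants, too few to tell a difference of either sign, with a log2 fold change of −0.06 (95% interval −0.99 to 0.87), and −0.24 (SE 0.44) without wild type 5.

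Slc8a1, which encodes NCX1, the main route by which calcium leaves the cardiomyocyte (ENSMUSG00000054640, chr17:81373105-81738377, minus strand), was counted at 411, 399 and 264 CPM in the wild type hearts and at 406, 484 and 439 CPM in the mutants. Mutant 5 and mutant 10 were the highest hearts and wild type 5 the lowest, while mutant 1 lay between the remaining wild type hearts. The log2 fold change was 0.31 (SE 0.18, 95% interval −0.10 to 0.72, adjusted p = 0.952), and 0.13 (SE 0.10, adjusted p = 0.637) without wild type 5. A correction for gene length with all 6 hearts left it at 0.27 (SE 0.13). That correction took Slc8a1 as 2901 bases long, the length behind its FPKM, while its exons cover 18807. The part of length in its values was not tested.

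Several of these genes varied together from heart to heart, with wild type 5 at one end of the range. Atp2a2, Atp2a3, Atp2b1, Atp2b4, Slc8a1 and Hrc all had their lowest value in that heart, by 0.43 to 0.79 on the log2 CPM scale below their means, and Sln had its highest, 1.22 above its mean. Pln was close to its mean there (−0.01). Over the 6 hearts Pearson's r of log2 CPM was between 0.89 and 0.98 for every pair among Atp2b1, Atp2b4, Slc8a1 and Hrc, and −0.97 between Sln and Atp2b1, while Pln had r between −0.72 and 0.35 with the other 9 genes. These are descriptions, not tests, and the trend with gene length differed between the hearts.

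**Figure D4:**
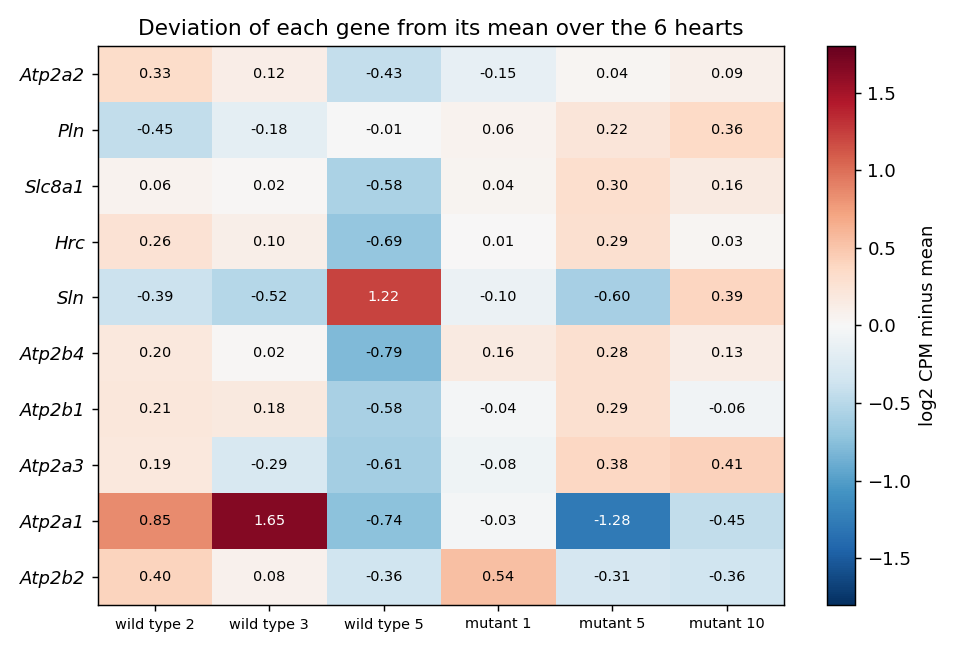
Log2 CPM of each of the 10 genes in each heart minus the mean of that gene over the 6 hearts, from blue (low) to red (high). The column of wild type 5 is the lowest for 6 of the genes and the highest for Sln (1.22), and Pln runs from −0.45 in wild type 2 to 0.36 in mutant 10.

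The balance between transporters was compared as ratios and shares within each heart, which removes what acts alike on both genes. With 14 such comparisons none reached an adjusted p under 0.28, and 0.1 is the smallest exact permutation p for 3 against 3 hearts. The sizes of these ratios rest on the lengths behind the deposited FPKM, while the log2 difference between groups of a ratio of 2 genes does not. The FPKM ratio of exchanger to pump, Slc8a1 over Atp2a2, was 0.232, 0.262 and 0.253 in the wild type hearts and 0.319, 0.335 and 0.293 in the mutants. By all exon bases the same ratio was 0.0705, 0.0794 and 0.0768 in the wild type hearts and 0.0969, 0.102 and 0.0889 in the mutants. All 3 mutant hearts were higher, an order of the hearts that a change of length cannot alter, and wild type 5 did not stand apart in this ratio. The log2 difference was 0.34 (exact permutation p = 0.1, adjusted p = 0.28), and it was 0.29 to 0.39 when each heart in turn was left out. The ratio of summed PMCA, including Atp2b3, to summed SERCA FPKM was 0.0777, 0.0828 and 0.0702 in the wild type hearts. In the mutants it was 0.101, 0.101 and 0.0837. The groups did not overlap (log2 difference 0.30, exact permutation p = 0.1, adjusted p = 0.28), by a narrow margin between wild type 3 and mutant 10. By all exon bases those 2 hearts had 0.06766 and 0.06775. Unlike a ratio of 2 genes, a ratio of sums can change its order of hearts with the lengths used. The log2 difference was 0.24 without wild type 5. Atp2a2 makes up almost all of both denominators, so the ratios are not independent of each other. With counts in place of FPKM the PMCA to SERCA ratio overlapped between the groups, with an exact permutation p of 0.2.

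The inhibitor to pump ratio, Pln over Atp2a2, was 0.481, 0.670 and 1.10 in the wild type hearts and 0.952, 0.934 and 0.991 in the mutants. The mutant hearts lay close together inside the wide range of the wild type hearts, so the groups overlapped (log2 difference 0.44, exact permutation p = 0.4, adjusted p = 0.509). By all exon bases the ratio was above 1 in 5 of 6 hearts, from 0.828 in wild type 2 to 1.90 in wild type 5. Leaving out wild type 5 made the difference 0.76 and leaving out wild type 2 made it 0.16. Sln over Atp2a2 was 0.0530, 0.0563 and 0.274 in the wild type hearts and 0.0901, 0.0560 and 0.107 in the mutants, with the value of wild type 5 again far from the rest.

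Within the pump families, Atp2a2 made up 99.2% to 99.5% of the summed SERCA FPKM in every heart. The share of Atp2a3 was 0.421%, 0.349% and 0.410% in the wild type hearts and 0.487%, 0.589% and 0.581% in the mutants. The share of Atp2b4 in the summed PMCA FPKM was 63.5%, 61.2% and 60.1% in the wild type hearts and 66.5%, 63.6% and 66.7% in the mutants, and that of Atp2b1 was 35.9%, 38.2% and 39.0% and then 32.5%, 35.7% and 32.6%. These 3 shares did not overlap between groups, though by a narrow margin for Atp2b4 and Atp2b1, and the latter pair are nearly mirror images because they add up to almost the whole (each exact permutation p = 0.1, adjusted p = 0.28).

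**Figure D5:**
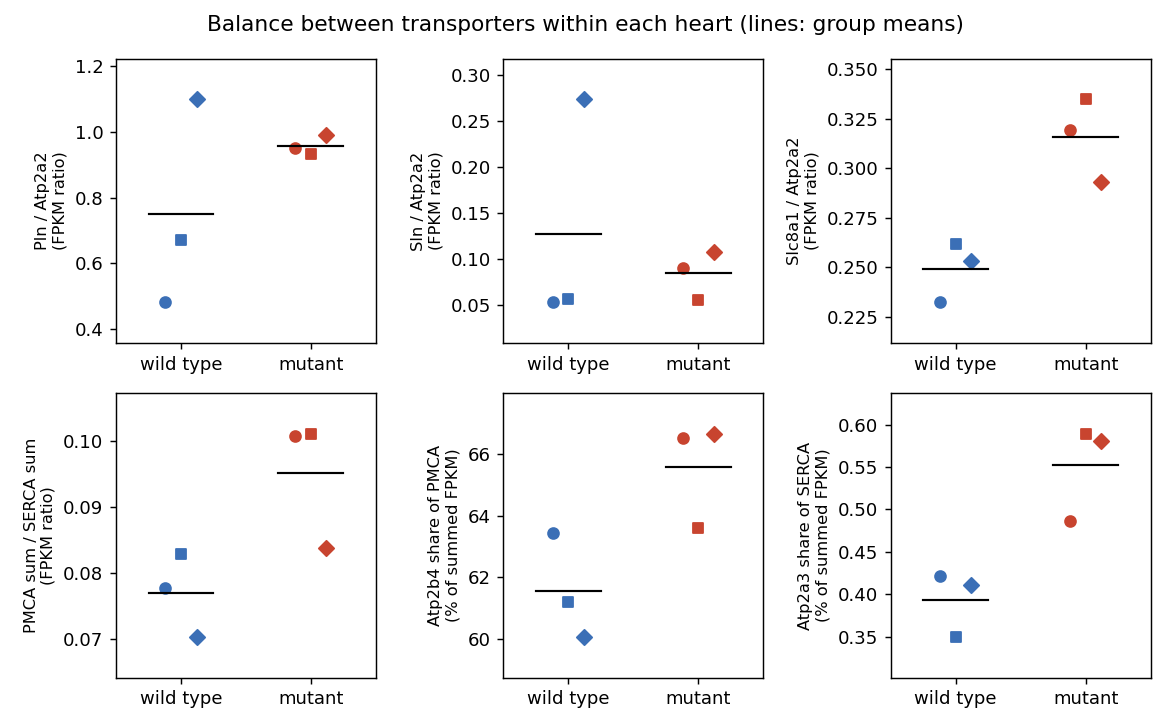
Ratios of FPKM and shares of summed FPKM within each heart, with 1 point per heart and group means as lines, wild type in blue and mutant in red (axes do not start at 0). Slc8a1 over Atp2a2, the Atp2a3 share and, by narrow margins, PMCA over SERCA and the Atp2b4 share separate the groups. Pln over Atp2a2 and Sln over Atp2a2 do not, with wild type 5 the highest point in both.

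When each of the 10 genes was divided by the summed cardiomyocyte markers, and Sln also by the atrial ones, the groups overlapped in all 11 comparisons, with a smallest exact permutation p of 0.2 and a smallest adjusted p of 0.825. For Slc8a1 the log2 difference was then 0.22, for Atp2a2 −0.12 and for Atp2b4 0.27.

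The wider calcium transport list held 79 genes in 7 roles, and 77 of them had enough counts to be tested. None passed the test at an adjusted p under 0.05 in edgeR (DESeq2 called 1, Casq2, and limma-voom 0), and 6 had an unadjusted p under 0.05, 5 higher and 1 lower. The groups did not overlap in 15 of the 77, and 52 were above 0 in log2 fold change and 25 below. Their median was 0.07, beside −0.0010 over all genes tested. The directions by role and the values of the single list genes below are for all 6 hearts only. The counts with all 6 hearts stand beside 5.73% of all genes tested at an unadjusted p under 0.05 and 11.2% without overlap. Without wild type 5, 9 list genes had an unadjusted p under 0.05 and again 0 passed. In that fit 2179 of all 17814 genes tested had an unadjusted p under 0.05, and 44 passed.

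On the release side, where calcium is stored and let out of the reticulum, 9 of 10 genes were above 0 with a median of 0.26. Casq2, the cardiac calsequestrin that holds calcium in the store, had 141, 152 and 212 CPM in the wild type hearts and 221, 414 and 292 CPM in the mutants (log2 fold change 0.88, SE 0.25, adjusted p = 0.585). Trdn, triadin, which ties calsequestrin to the release channel, had 75.4, 73.7 and 66.4 CPM and 90.1, 102 and 88.3 CPM (0.38, SE 0.10, adjusted p = 0.578). Both genes were higher in every mutant heart than in every wild type heart. Srl, sarcalumenin, had the highest level in this role (mean 245 FPKM) and a log2 fold change of 0.32 (SE 0.14, adjusted p = 0.881).

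Among kinases, phosphatases and scaffolds that act on phospholamban, 20 of 22 genes were above 0, with a median of 0.09 and 2 at an unadjusted p under 0.05. Hspb6, a small heat shock protein that binds protein phosphatase 1, had 15.3, 16.97 and 20.4 CPM in the wild type hearts and 20.4, 25.2 and 26.7 CPM in the mutants (log2 fold change 0.46, SE 0.15, adjusted p = 0.709). Camk2b, a subunit of the calmodulin-dependent kinase, had 4.03 to 5.53 CPM in wild type and 5.87 to 7.47 CPM in mutant hearts (0.45, SE 0.18, adjusted p = 0.843). Neither gene overlapped between groups, although wild type 5 and mutant 1 were almost equal for Hspb6. Akt1, the highest of this role (mean 561 FPKM), had a log2 fold change of 0.05 (SE 0.11).

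The sister pumps and exchangers were split, 6 above 0 and 6 below. Atp2b3, PMCA3, had 0.568 to 0.626 CPM in wild type and 0.992 to 1.02 CPM in mutant hearts (log2 fold change 0.76, SE 0.28, adjusted p = 0.788), at a level of 0.184 FPKM. Slc24a3, a potassium-dependent sodium-calcium exchanger, had 14.4, 15.1 and 11.2 CPM in the wild type hearts and 8.66, 8.11 and 9.46 CPM in the mutants (−0.63, SE 0.15, adjusted p = 0.405). It was the one gene of the list with an unadjusted p under 0.05 on the lower side. Tmem165, a Golgi transporter and the highest of this role (mean 137 FPKM), had a log2 fold change of −0.07 (SE 0.09).

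The small SERCA-binding proteins other than Pln and Sln were led by 1810037I17Rik (another-regulin, the third frame shown above), with 84.1, 81.9 and 144 CPM in the wild type hearts and 107, 84.5 and 101 CPM in the mutants. Its high value in wild type 5 was not matched elsewhere, and the log2 fold change was −0.08 (SE 0.22, adjusted p = 0.990). Mrln (myoregulin) and Gm34302 (Strit1, the activator DWORF) had too few counts to be tested, while Smim6 (Erln) was tested. One entry of this role, Gm7325, is the myoblast fusion gene Mymx and binds no SERCA as far as is known, so it is not described with the group. With Gm7325 counted, all 3 genes tested in this role were below 0, with a median of −0.75 and 0 at an unadjusted p under 0.05. In the remaining roles no gene had an unadjusted p under 0.05: 12 protein partners of the transporters were led by Bsg (basigin, 723 FPKM, log2 fold change 0.03) and 12 transcription factors tied to Atp2a2 or Slc8a1 by Gata4 (147 FPKM, 0.04).

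Among all 17473 genes tested, those with the pattern most like each main gene over the 6 hearts were listed by Pearson's r of log2 CPM. They were Kirrel, Bend4 and Mkl1 for Atp2a2 (r = 0.993 to 0.994), Rragc, Narf and Atp8b1 for Pln (0.989 to 0.993), B3gat3, Mrpl40 and Chmp7 for Sln (0.996 to 0.998), E430025E21Rik, Tspan18 and Hipk3 for Slc8a1 (0.997 to 0.999), and Larp4, Armcx4 and Fbn2 for Hrc (0.998 to 0.999). With 6 hearts and so many genes, values of this size are the extremes of a long list and are given as a description.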

How the data were processed

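Whole E13.5 hearts were measured by RNA-seq, 1 heart per library, so p-values measure the spread between hearts. Per the study's methods, reads were trimmed, mapped to mm10 (STAR), and the uniquely mapped ones assigned to genes (featureCounts), whereas the submitters' processing notes name HTSeq and DESeq2. The authors deposited raw read counts per gene. They also deposited FPKM, which equal the count divided by 1 fixed length per gene and the library total. Deposited group means were not used.

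Counts were tested with edgeR 4.0.16 (quasi-likelihood, TMM scaling, default low-count filter, two-sided, Benjamini-Hochberg adjustment over 17473 genes), after a check on simulated counts, with DESeq2 1.42.0 and limma 3.58.1 as alternatives. CPM are scaled by TMM. The trend with gene length in each heart and the gene length correction used the fixed length behind the deposited FPKM. Ratios and shares were compared by two-sided exact permutation tests over hearts. GENCODE M21 (GRCm38) gave positions and matched 46488 of 46983 identifiers. Members, gene lists and tests were chosen with earlier results of these data known. The genes named are the 10 members, list genes with an unadjusted p under 0.05, the highest of each role by mean FPKM, the 3 genes most alike in pattern to each of Atp2a2, Pln, Sln, Slc8a1 and Hrc, and any said to have been chosen after their values were seen. The highest gene of 1 role is not reported here.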

Additional observations from a re-analysis of the deposited data

How the results depend on the processing

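None of the 10 genes passed an adjusted p under 0.05 in any of the 19 alternatives (DESeq2, limma-voom, other scalings and filters, FPKM with 2 pseudocounts, a gene length correction, Xist as a covariate, each heart left out, an adjusted p under 0.1, and, chosen after seeing the data, the length correction without wild type 5). Over all genes, 0 passed in the edgeR test, but 133 did by DESeq2, 34 without a filter on low counts, 6 after the length correction, 41 with that correction and wild type 5 left out, 6 at an adjusted p under 0.1, and 0 to 44 with a heart left out, 44 being without wild type 5. Of the wider calcium list, DESeq2 called 1. The cause of these differences was not tested. Pln had an unadjusted p under 0.05 in 15 of the 19 and Atp2a1 in 11, with log2 fold changes of 0.32 to 0.54 and −1.84 to −0.56. The adjusted p under 0.1 is counted among the 19 and repeats the unadjusted p of the main fit. For Pln the exceptions were the fits without wild type 2, wild type 3, mutant 5 or mutant 10. Leaving out 1 heart at a time turned the sign for Atp2a2 (−0.23 to 0.13), Atp2b1 (−0.12 to 0.23), Atp2b2 (−0.44 to 0.15), Sln (−0.67 to 0.40) and Hrc (−0.0668 to 0.36), and the length correction without wild type 5 did so for Atp2b1 (−0.0673), Sln (0.29) and Hrc (−0.0568). It also turned the Atp2a2 share of SERCA (−0.0812 to 0.0370 percentage points) and the log2 differences of Sln over Atp2a2 (−0.61 to 0.58), Slc8a1 over PMCA (−0.0208 to 0.12), Sln relative to the atrial list (−0.36 to 0.38) and, relative to the cardiomyocyte list, Atp2b1 (−0.16 to 0.13), Atp2b2 (−0.55 to 0.0170), Sln (−0.66 to 0.32) and Hrc (−0.10 to 0.24). Atp2b2 was not tested under the strict filter of 1 CPM in 3 hearts. With one heart left out, 3 against 2 hearts allow no exact p below 0.2. No paired analysis was possible because neither the labels nor the methods give a pairing of the hearts, and the shared replicate number 5 is not said to mark one.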
